A study of Homo sapiens with 2 samples.

Results

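The S100 proteins of G401 cells are described here, as mRNA, in a library from cells with a control guide and a library from cells with a CRISPR guide against HOXB13. The 10 genes S100A2, S100A3, S100A4, S100A6, S100A10, S100A11, S100A13, S100A16, S100B and S100P were taken by symbol from 23452 genes with a value, and the tables held 11 further S100 genes. The 10 were listed with the values of these 2 libraries known, so their ratios are a description. G401, the source of both libraries, is a human rhabdoid tumor line of the kidney. Each group held 1 library, so differences had no replicate check and p-values were not computed. The labels do not say whether the cells with the HOXB13 guide were a clone or a pool.

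S100 proteins are small proteins with a pair of EF-hand motifs, loops that bind calcium, and most work as dimers that open a binding surface for a partner protein when calcium rises. Most of their genes lie in a cluster on chromosome 1, beside the epidermal differentiation complex. Some members act inside the cell on annexins and the cytoskeleton, and others are also released and bind the receptor AGER (RAGE).

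Levels are FPKM, reads scaled by transcript length and library size. Of genes below 0.3 FPKM in both libraries, 54.6% had values in a ratio of small whole numbers of reads. The value of 1 read gave estimated depths of about 24.0 M and 23.5 M reads in the control-guide and HOXB13-guide libraries. From these came an estimated read number for each S100 gene. For members with few reads the number from the transcript length lay at a whole multiple of the lowest whole numbers that give the ratio (for S100P, 54 and 2 reads, a ratio of 27 to 1). Fold changes are ratios of FPKM with exact 95% intervals from these reads, which cover counting error only. Log2 ratios are of FPKM + 1, HOXB13 guide over control, and understate the ratio of low genes. A gene was tested at 1 FPKM or more in either library, and called at 2-fold on that log2 scale, which is a rule of size without a test. The targeted gene HOXB13 had 14.6 FPKM (992 reads) with the control guide and 4.50 FPKM (300 reads) with the HOXB13 guide, 3.24-fold lower (interval 2.84 to 3.70). SMARCB1, the gene lost in most rhabdoid tumors, was barely detected, at 0.113 and 0.0577 FPKM.

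The summed level of the 10 members was 656 FPKM with the control guide and 1977 with the HOXB13 guide, 3.02-fold higher. S100A4 carried most of that difference. It supplied 11.5% of the sum with the control guide and 51.0% with the HOXB13 guide, whereas S100A6 supplied 63.8% and 38.0%. Without S100A4 the other 9 members summed to 580 and 968 FPKM, 1.67-fold higher. S100A6 was thus the most abundant member with the control guide and S100A4 with the HOXB13 guide. S100A13 supplied 18.1% and 8.43% of the sum. S100A10, S100A11 and S100B each stayed under 2 FPKM in both libraries.

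**Figure D1:**
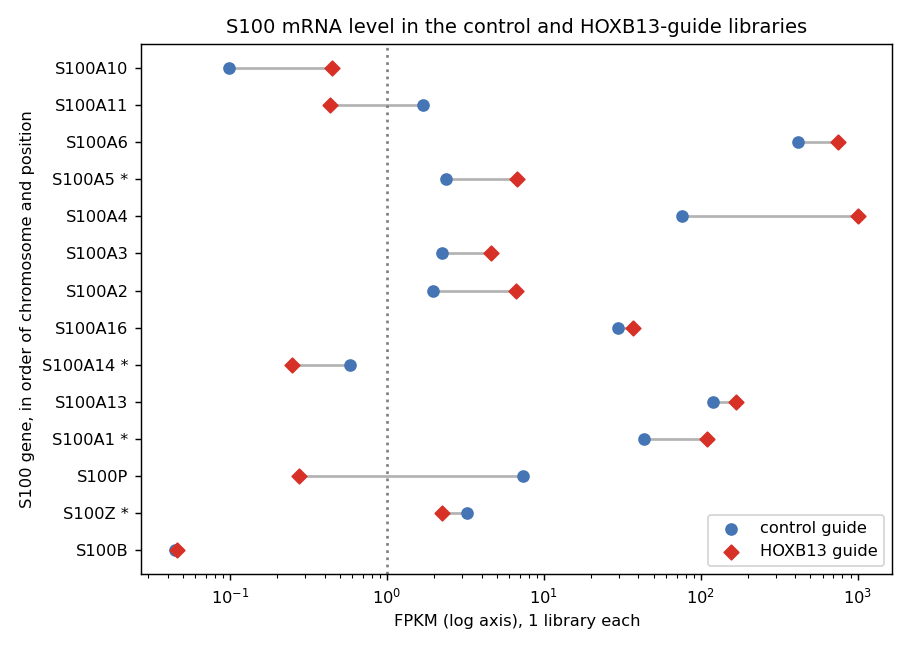
FPKM of the S100 genes above 0 in both libraries, on a log axis, with a circle for the control library and a diamond for the HOXB13-guide library, 1 library each; genes are in order of chromosome and position, an asterisk marks S100 genes outside the 10 members, and the dotted line is 1 FPKM. S100A4 runs from 75.6 to 1009 and S100P from 7.30 to 0.276, while S100B lies at the same place in both.

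Of the 10 members 8 were tested, of which S100A4 and S100A2 were called higher (2 genes) and S100P was called lower (1 gene) with the HOXB13 guide. Among all 11970 tested genes 4.25% were called higher and 4.51% lower, and since the members were chosen on this contrast nothing is read from their count beside these shares. The median log2 ratio was 0.63 over the 8 and −0.05 over all tested genes, and for the same reason nothing is read from it. The call of S100A2 ended when ratios were centred on 4 housekeeping genes (GAPDH, ACTB, TBP and PPIA; log2 0.88) and with a pseudocount of 5 FPKM (log2 0.73). S100A11 and S100P passed the filter through the control library alone, so they could be called lower but not higher. S100A10 and S100B were below the filter in both libraries.

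S100A4 binds nonmuscle myosin and is known from mesenchymal and metastatic cells. Its locus spans chr1:153516095-153518282 in hg19, on the minus strand, and its level was 75.6 FPKM (657 reads) with the control guide and 1009 FPKM (8593 reads) with the HOXB13 guide. The difference was 13.4-fold (interval 12.3 to 14.5), a log2 ratio of 3.72. By ratio S100A4 ranked 19 from the top of the 11970 tested genes, and by level it went from place 1060 in the control to place 82 with the HOXB13 guide. Among tested genes with a mean of 50 FPKM or more, 4.04% were called higher and 5.07% lower; this contrast chose the members, so nothing is read from it. MYH9, the nonmuscle myosin heavy chain that S100A4 binds, had 74.4 and 81.5 FPKM (log2 0.13).

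S100A6, also called calcyclin, was the most abundant member in the control library. Its locus spans chr1:153507076-153508717, and it had 418 FPKM (4689 reads) with the control guide and 752 FPKM (8257 reads) with the HOXB13 guide, 1.80-fold higher (interval 1.73 to 1.86; log2 0.84). That is short of 2-fold, and 6.17% of tested genes had a ratio as high or higher. Its partner CACYBP, named for binding calcyclin, was also above its control level, at 24.8 and 46.9 FPKM (log2 0.89), also short of 2-fold. ANXA11, an annexin that binds S100A6, had 32.5 and 48.0 FPKM (log2 0.55).

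The stretches before the transcription start of S100A4, S100A6, S100A10 and S100P are shown because S100A4 and S100P had the highest and the lowest log2 ratio of the members, and S100A6 and S100A10 a high and a low level. Each is the 250 bases before the start in RefSeq on GRCh38.p14, 5′ to 3′ on the gene's strand, and capitals mark each CG dinucleotide and each TATAAA.
S100A4 (chr1:153545807-153546056, minus): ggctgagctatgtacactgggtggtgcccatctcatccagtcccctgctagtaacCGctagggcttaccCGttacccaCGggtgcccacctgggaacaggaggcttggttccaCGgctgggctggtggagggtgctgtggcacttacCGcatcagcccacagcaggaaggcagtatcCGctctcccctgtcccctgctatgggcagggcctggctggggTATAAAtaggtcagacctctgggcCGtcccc
S100A6 (chr1:153535992-153536241, minus): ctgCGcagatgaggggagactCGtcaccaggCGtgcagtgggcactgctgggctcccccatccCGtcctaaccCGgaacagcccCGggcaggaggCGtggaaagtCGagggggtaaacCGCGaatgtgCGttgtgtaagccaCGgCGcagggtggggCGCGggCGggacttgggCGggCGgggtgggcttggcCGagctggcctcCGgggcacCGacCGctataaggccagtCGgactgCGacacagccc
S100A10 (chr1:151993860-151994109, minus): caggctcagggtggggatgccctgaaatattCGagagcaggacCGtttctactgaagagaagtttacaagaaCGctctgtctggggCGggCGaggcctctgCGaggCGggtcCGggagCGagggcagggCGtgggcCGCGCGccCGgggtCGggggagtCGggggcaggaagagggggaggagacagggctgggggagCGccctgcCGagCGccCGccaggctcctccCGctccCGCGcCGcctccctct
S100P (chr4:6693628-6693877, plus): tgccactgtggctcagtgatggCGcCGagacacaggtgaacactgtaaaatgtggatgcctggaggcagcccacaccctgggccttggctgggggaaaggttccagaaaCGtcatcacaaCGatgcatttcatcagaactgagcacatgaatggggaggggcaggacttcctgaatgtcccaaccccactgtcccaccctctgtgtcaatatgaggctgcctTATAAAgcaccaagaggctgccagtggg
S100A6 and S100A10 each held 24 CG dinucleotides, a number reached by 23.7% of the 35116 promoters in the table. In the control library they were at the top and near the bottom of the members by level. A link between CG number and level was not tested. S100A4 held 7 and S100P 4, below the median of 11 over all promoters. These last 2, the members with the highest and the lowest ratio, both carried TATAAA. So did 1 of 3 promoters of S100A13, with a log2 ratio of 0.48. A link between TATAAA and ratio was not tested.

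The same windows were read for the 9 members with an entry (all but S100B), 13 promoters in all since 3 genes have several. On both strands, TATAAA was found in 3 of the 13 (S100A4, S100P and 1 of 3 for S100A13) and in 10.7% of all promoters. TGANTCA, letters found in AP-1 sites but matched here with any base at N, was found in 2 (S100A3 and 1 of 2 for S100A2) and in 6.57% of all promoters. CAATAAA, letters found in sites of posterior HOX proteins, was in none of the 13 and in 3.66% of all promoters. No member promoter held more than 1 of these motifs, so none overlapped. A match is a run of letters and not a measured site.

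S100A2, an epithelial member, and S100A3, a member rich in cysteine known from hair, were low and both higher with the HOXB13 guide. S100A2, at chr1:153533585-153538306, had 1.97 FPKM (36 reads) with the control guide and 6.60 FPKM (118 reads) with the HOXB13 guide, 3.35-fold higher (interval 2.29 to 5.01; log2 1.35). S100A3, at chr1:153519809-153521734, had 2.25 FPKM (29 reads) and 4.60 FPKM (58 reads), 2.04-fold higher (interval 1.29 to 3.31). With the pseudocount its log2 ratio was 0.78, so S100A3 was not called.

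S100A13 and S100A16 were both expressed and fell short of 2-fold. S100A13, which takes part in the release of FGF1, had 119 FPKM with the control guide and 167 with the HOXB13 guide, 1.40-fold higher (interval 1.29 to 1.53, from about 891 and 1224 reads; log2 0.48). FGF1 itself was near absent, at 0.0433 and 0.0257 FPKM. S100A16, at chr1:153579367-153585514, had 29.6 FPKM (616 reads) and 37.0 FPKM (753 reads), 1.25-fold higher (interval 1.12 to 1.39; log2 0.31). Its direction depended on the scaling: it was lower by 0.17 on the log2 scale when ratios were centred on the 4 housekeeping genes, and S100A13 then stood at 0.01.

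The S100A13 locus, chr1:153591276-153606568, is the widest of the cluster at 15293 bases. It encloses S100A1, which lies on the other strand, and shares 111 bases with CHTOP. In GENCODE 29 the exons of coding S100A1 and S100A13 transcripts share 28 bases. The labels and processing notes state no strand mode, and without strand, reads from shared bases cannot be told apart.

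S100A10 and S100A11, which lie 38267 bases apart and far from the other members of chromosome 1, were near absent. S100A10 does not bind calcium and is known as the partner of ANXA2 at the cell membrane, where the pair binds plasminogen. At chr1:151955386-151966714 it had 0.0976 FPKM (2 reads) with the control guide and 0.449 FPKM (9 reads) with the HOXB13 guide, a ratio of 4.59 (interval 0.951 to 43.7) that is not larger than counting error. ANXA2 was abundant, at 368 and 389 FPKM (log2 0.08).

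S100A11, a partner of ANXA1, is at chr1:152004982-152009511 and had 1.70 FPKM (16 reads) with the control guide and 0.434 FPKM (4 reads) with the HOXB13 guide. That is 3.92-fold lower (interval 1.26 to 16.1), but the log2 ratio with the pseudocount was −0.91 and the gene was not called. It was past 2-fold with a pseudocount of 0.1 FPKM (log2 −1.75) and with the housekeeping centring (log2 −1.39). ANXA1 went the other way, with 0.591 and 5.43 FPKM (log2 2.02). With the values as deposited, S100A11 was the one chromosome 1 member with a log2 ratio below 0; with the housekeeping centring S100A10 and S100A16 were below 0 too.

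S100P and S100B lie outside the cluster. S100P, known from placenta and from epithelial tumors and a partner of ezrin, is on chromosome 4 at chr4:6695566-6698897. It had 7.30 FPKM (54 reads) with the control guide and 0.276 FPKM (2 reads) with the HOXB13 guide, 26.4-fold lower (interval 6.98 to 224; log2 −2.70). By ratio S100P ranked 40 from the bottom of the tested genes, and it passed the filter through the control library alone. The nearest tested genes did not share its size of difference: LOC93622, 17.8 kb before it, had 15.6 and 16.6 FPKM, and BLOC1S4, 18.9 kb after it, had 28.1 and 14.4 (log2 −0.92). EZR, which encodes ezrin, had 86.6 and 77.8 FPKM (log2 −0.15), and S100PBP, a binding protein named for S100P, had 16.1 and 12.1 (log2 −0.38).

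S100B, a marker of glia and melanocytes, is on chromosome 21 at chr21:48018531-48025035 and had 0.0446 and 0.0456 FPKM, which stood for 1 read in each library. Its ratio of 1.02 had an interval of 0.0130 to 80.1, so no difference was detectable at this depth. Of the 9 melanocyte and glial markers, 2 reached 1 FPKM in either library (MITF, at 128 and 72.9, and PMEL, at 12.4 and 4.81), and SOX10 and TYR were listed at 0 in both. The neighbours of S100B were expressed, with DIP2A at 6.10 and 10.9 FPKM (log2 0.75) and PRMT2 at 26.6 and 31.2 (log2 0.22).

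**Figure D2:**
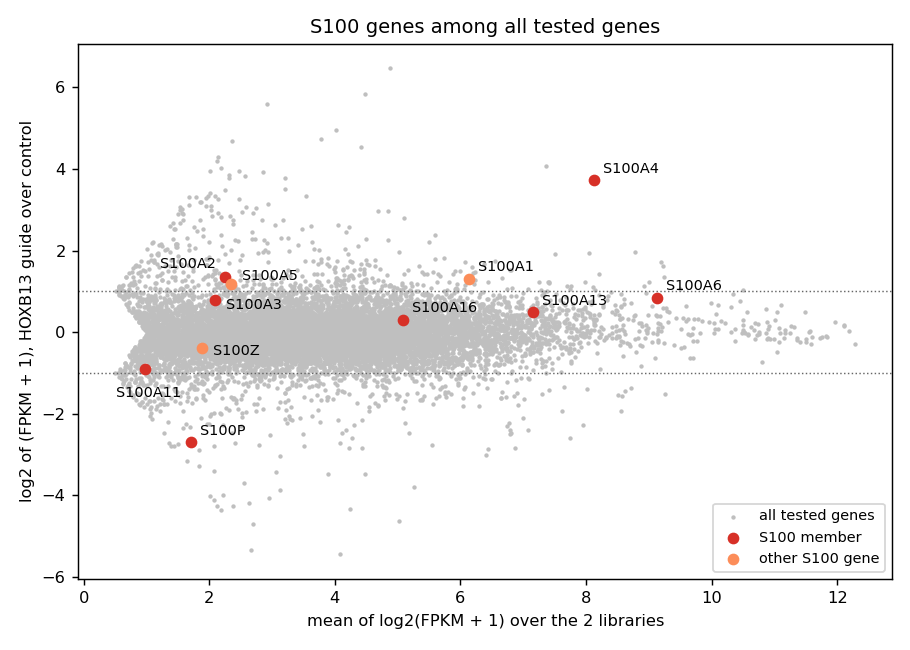
Log2 ratio of FPKM + 1 (HOXB13 guide over control) against the mean of log2(FPKM + 1) for the 11970 tested genes in grey, with tested S100 members in red and other tested S100 genes in orange; dotted lines mark 2-fold. S100A4 stands at a log2 ratio of 3.72 among genes of high level, S100P at −2.70 among low ones, and S100A6 and S100A13 lie inside the lines.

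Of the 11 other S100 genes in the tables, 3 were tested and 2 of these were called higher, beside 4.25% of all tested genes. With the housekeeping centring 0 of the 3 were called, and with a pseudocount of 5 FPKM S100A1 alone was. S100A1, a member known from heart and skeletal muscle, had 43.6 FPKM (410 reads) with the control guide and 110 FPKM (1012 reads) with the HOXB13 guide, 2.52-fold higher (interval 2.24 to 2.83; log2 1.31). This ratio was larger than that of S100A13, the gene whose locus encloses it. S100A5, between S100A6 and S100A4, had 2.38 FPKM (29 reads) and 6.70 FPKM (80 reads), 2.82-fold higher (interval 1.82 to 4.47; log2 1.19). S100Z on chromosome 5 had 3.22 FPKM (73 reads) and 2.25 FPKM (50 reads), 1.43-fold lower with an interval of 0.984 to 2.09 (log2 −0.38). S100A14 was below the filter, with 0.582 FPKM (12 reads) and 0.248 FPKM (5 reads).

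S100 genes known from skin and myeloid cells, and S100G, were at or near 0. S100A7, S100A7A, S100A7L2, S100A8, S100A12 and S100G were listed at 0 in both libraries, where a count of 0 allows up to 3 reads. S100A9, which pairs with S100A8 in neutrophils, had 0.222 FPKM (about 2 reads) with the control guide and was listed at 0 with the HOXB13 guide. Of 7 myeloid markers 3 reached 1 FPKM with the control guide and 2 with the HOXB13 guide, with CD68 at 102 and 111 FPKM, AIF1 at 29.5 and 34.4 and CSF1R at 3.25 and 0.348. PTPRC, which defines leukocytes, had 0.0165 FPKM and 0. Of 7 keratinocyte markers KRT10 alone reached 1 FPKM, at 10.6 and 6.34, and KRT5, KRT14, KRT1 and IVL were listed at 0 in both.

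By position, the tested S100 genes from S100A6 to S100A1 all had log2 ratios above 0 with the values as deposited. S100A16 alone of them was below 0 with the housekeeping centring. S100A14, which lies inside this stretch and was below the filter, had a log2 ratio of −0.34. Among all tested genes 45.6% were above 0. Most genes of the stretch are members listed with this contrast known, so nothing is read from the shared direction. In order along the chromosome the log2 ratios were 0.84 for S100A6, 1.19 for S100A5, 3.72 for S100A4, 0.78 for S100A3, 1.35 for S100A2, 0.31 for S100A16, 0.48 for S100A13 and 1.31 for S100A1. S100A6, S100A5, S100A4 and S100A3 are separated by 905, 1853 and 1526 bases, yet their ratios ran from 0.78 to 3.72. S100A9 to S100A7, at or near 0, lie on one side of this group, 73938 bases from S100A6. CHTOP, on the other side, had 46.2 and 35.4 FPKM (log2 −0.37), and TDRKH, the nearest tested gene before S100A10, had 5.93 and 8.10 (log2 0.39).

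In the wider neighbourhood ratios lay on both sides of 0. Of 113 non-S100 genes within 1 Mb of the chromosome 1 members, 43 were tested, 20 of them with ratios above 0 and 23 below. Their median log2 ratio was −0.09. Over all tested genes 45.6% had ratios above 0, and the median was −0.05. Among these 43, 3 were called higher and 1 lower, beside 4.25% and 4.51% of all tested genes. At least 2-fold higher were IL6R, an interleukin receptor, at 1.96 and 10.03 FPKM (log2 1.90), ANXA9, at 1.46 and 5.37 (log2 1.37), and CGN, which encodes the tight junction protein cingulin, at 2.92 and 8.32 (log2 1.25). HAX1, a mitochondrial survival factor, was 2.92-fold lower, at 96.9 and 33.1 FPKM (log2 −1.52). None of the 44 genes in the list chosen for the epidermal differentiation complex was tested, and 40 were at 0 in both libraries.

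**Figure D3:**
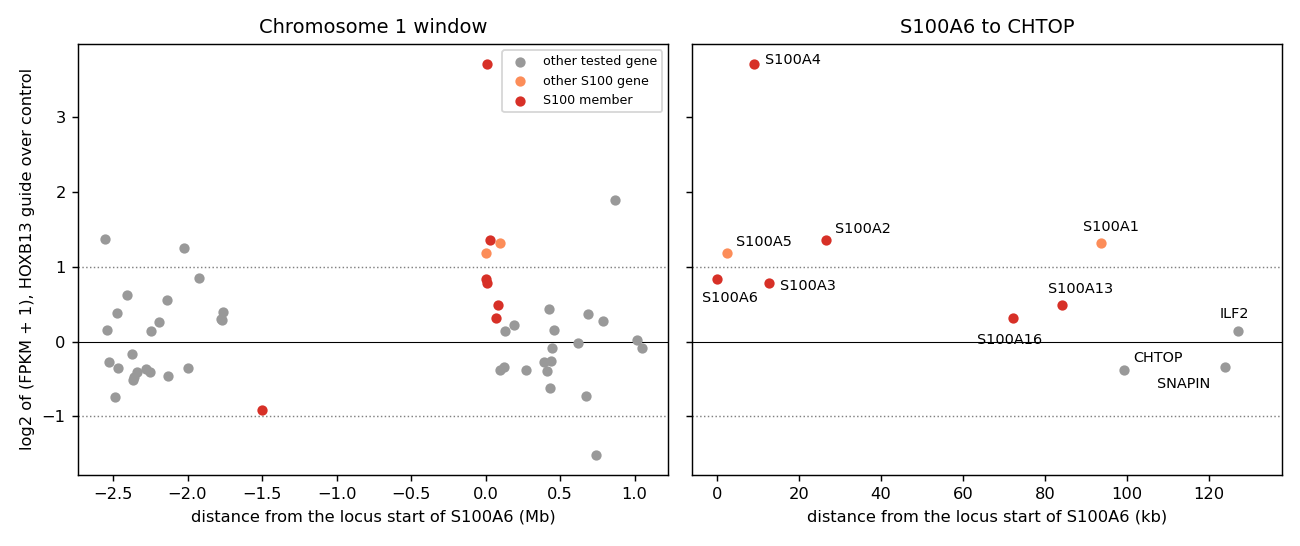
Log2 ratio of FPKM + 1 (HOXB13 guide over control) of tested genes by distance from the locus start of S100A6, for the whole chromosome 1 window in Mb on the left and for the stretch from S100A6 to CHTOP and beyond in kb on the right; dotted lines mark 2-fold. The tested S100 genes from S100A6 to S100A1 lie above 0 with the values as deposited (S100A16 at −0.17 with the housekeeping centring), CHTOP is at −0.37, and S100A11 is the red point at −0.91 on the left.

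Annexins, calcium-dependent membrane proteins that several S100 dimers bind, had 8 tested genes of 13 in the tables, 2 called higher and none lower; their median log2 ratio was 0.46. Those called were ANXA1, given above, and ANXA9. ANXA1 passed the filter through the HOXB13-guide library alone, so it could be called higher but not lower. ANXA6 had 47.8 and 82.7 FPKM (log2 0.78), and ANXA4 had 69.1 and 44.0 (log2 −0.64). Median and counts stand beside −0.05, 4.25% and 4.51% over all tested genes.

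Other partners and receptors of S100 proteins had 24 tested genes of 36, 4 called higher and none lower. Their median was 0.17, and among all tested genes 4.25% were called higher and 4.51% lower. AHNAK, a giant scaffold protein that binds the S100A10 and ANXA2 pair, had 45.0 and 111 FPKM (log2 1.28). PLAU, the urokinase that activates plasminogen, had 76.9 and 165 FPKM (log2 1.09), and its receptor PLAUR had 0.753 and 2.54 (log2 1.01). PLAUR passed the filter through the HOXB13-guide library alone, so it too could be called higher but not lower. MYH14, a nonmuscle myosin heavy chain, had 1.07 and 3.29 FPKM (log2 1.05). The receptor AGER was low, at 3.14 and 1.65 FPKM (log2 −0.64).

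Other EF-hand proteins had 40 tested genes of 50, 3 called higher and none lower, beside 4.25% and 4.51% of all tested genes. Their median was 0.13. TNNC2, the troponin C of fast muscle, had 1.48 and 6.13 FPKM (log2 1.52), SPARC, a secreted matrix protein, had 7.41 and 21.8 (log2 1.44), and the calmodulin gene CALM3 had 73.1 and 152 (log2 1.05). The myosin light chain MYL6 had 354 and 690 FPKM (log2 0.96). These counts depended on the scaling. With the housekeeping centring, under which the median of all tested genes was −0.53, 1 annexin was 2-fold higher and 2 lower (median −0.02), 0 partners higher and 4 lower (AGER among them; median −0.30), and 1 other EF-hand gene higher and 1 lower (median −0.35). The chromosome 1 neighbours then had 1 gene at least 2-fold higher and 4 lower, with a median of −0.57. Among all 11970 tested genes 223 were then higher and 1994 lower, so nothing is read from these list counts.

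**Figure D4:**
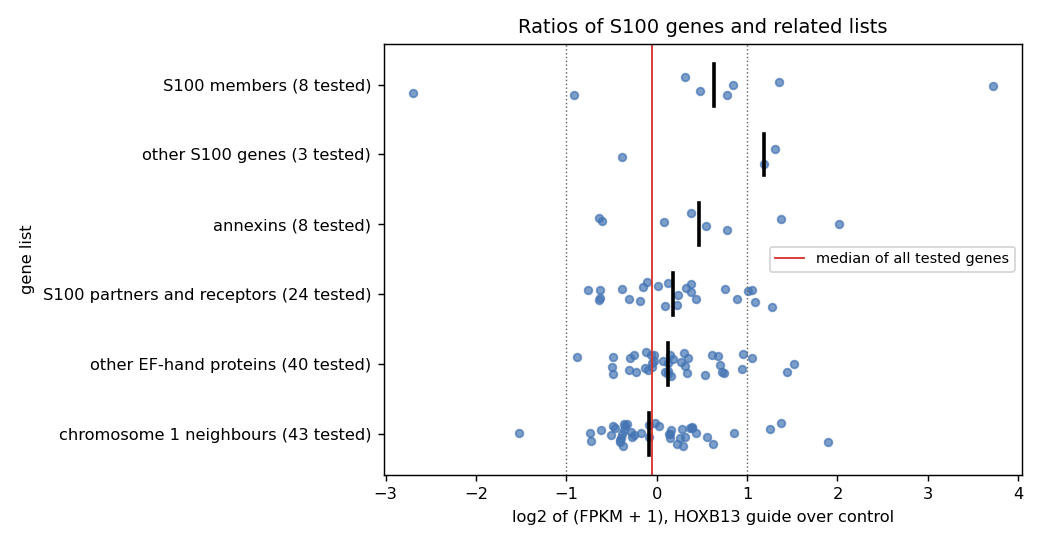
Log2 ratio of FPKM + 1 (HOXB13 guide over control) of each tested gene in 6 lists, 1 point a gene with vertical jitter, black bars at the list medians, a red line at the median of all tested genes (−0.05) and dotted lines at 2-fold. The S100 members run from −2.70 to 3.72, and the chromosome 1 neighbours centre near −0.09.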

How the data were processed

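Total RNA of G401 cells was depleted of ribosomal RNA and sequenced, per the labels' protocols. The authors deposited 1 table of FPKM per library, made on hg19 with Bowtie, TopHat and Cufflinks per the submitters' processing notes, which give no versions or settings. FPKM written as 0.001 in the deposited tables was read as 0, failed estimates (2 in the control, 3 in the HOXB13-guide table) were left out, and rows of 1 symbol were summed. Start positions are given from 1. The members and gene lists were chosen with earlier results of these data known. Named genes were HOXB13, all S100 genes, the 4 tested genes of each other list that moved most by absolute ratio, textbook partners and the flanking tested genes, and some cell type markers.

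Depth came from 2396 genes below 0.3 FPKM in both libraries, 54.6% of which gave a ratio of small whole numbers. Among 312 genes with 1 GENCODE 29 transcript, 50 gave 1 common depth with 202 nt subtracted from the length, so depth is an estimate. Read numbers of S100 genes used the coding transcript whose span was nearest to the locus; for S100A13, with none of similar span, the shortest was used. GENCODE 29 is of another build and gave lengths only. No count test was run, as reads were not recovered for all genes. Computation used scipy 1.17.1, pandas 2.3.3 and numpy 2.4.6 under Python 3.11.15, with matplotlib 3.10.9 for plots.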

Additional observations from a re-analysis of the deposited data

How the results depend on the processing

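No paired analysis was possible because each group had 1 library, and no library could be left out. Under 9 other settings, and 1 added after the data were seen, no called S100 gene changed direction. S100A4 ranged from 3.24 to 3.79, S100A2 from 0.73 to 1.69, S100P from −4.30 to −1.22 and S100A11 from −1.75 to −0.30 (log2). With a pseudocount of 0.1 FPKM, 2 members were at least 2-fold lower, S100A11 with S100P, and 849 of all genes were. With 5 FPKM, 1 member was 2-fold higher (S100A4, without S100A2), 236 of all genes were higher and 221 lower, and the lists held 2 partners, 0 annexins, 2 neighbours and 1 other S100 gene past 2-fold. An equal upper quartile put 5 EF-hand genes past 2-fold, with 578 of all genes higher and 473 lower. A filter at 5 FPKM left 2 partners past 2-fold, with 396 of all genes higher and 387 lower. The summed ratio of the members was 3.16 with an equal upper quartile, 3.14 with a trimmed mean, 5.16 without S100A6 and 1.67 without S100A4, the last added after the data were seen. Centring on GAPDH, ACTB, TBP and PPIA, the added alternative, moved the median of all genes from −0.05 to −0.53. It left 1 member higher (S100A4, without S100A2) and 2 lower, 223 genes higher and 1994 lower (10.1% of the calls higher, against 48.5% as deposited) and 0 other S100 genes past 2-fold. Under it S100A16, S100A10 and S100B, none of them below 0 as deposited, lay below 0. For S100A10, S100B and the HOXB13-guide level of S100P, depth is the limit.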
